A study of Mus musculus with 6 samples.

Results

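In mouse embryonic stem cells (mESCs) of the R1 line, 4277 promoter-anchored interactions reached past 5 or more other captured promoters to a distal region 25 to 100 kb away. They were 4277 of the 94896 interactions present in both HiCap replicates. HiCap couples Hi-C, the genome-wide ligation of DNA ends that lie close together in the nucleus, with capture of the fragments that hold promoters. No treatment was applied, the cells were kept undifferentiated with LIF, and there was no other condition: 2 replicates of HiCap and a pooled list of 2 Hi-C replicates of the same line were compared. An interaction was kept when the same promoter fragment and the same distal fragment stood in both HiCap lists and not in the Hi-C list, and when 5 or more other promoter fragments, of any of the 4 deposited lists, had their midpoints between the midpoints of the pair. These calls were chosen by their values in the lists, so their number, span, reproducibility and absence from Hi-C describe the choice and were not tested. The lists give positions on mm9 and no read numbers, so the depth behind a call is unknown here beyond the authors' minimum of 3 read pairs in each replicate. Nor do they measure RNA, so the identity of the cells could not be checked against marker genes.

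Enhancers are stretches of DNA that bind transcription factors and raise the transcription of genes on the same chromosome, often through contact with their promoters. The promoter an enhancer acts on need not be the nearest, and promoters in between may be passed over or may contact the same region. In proximity ligation the chance of a contact falls steeply with the distance between the fragments, whatever the regulatory relation. A listed contact is therefore a ligation between fragments and no measure of enhancer activity.

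Windows from 5 of the regions shared by the greatest numbers of these promoters are shown first. The region in an intron of Sf1, which encodes a splicing factor that recognizes the branch point, was reached by 12 promoters past 5 or more others. The region in an intron of Ptprn, a receptor-type phosphatase-like protein of secretory granules, and an intergenic region on chromosome 11 near Aurkb were each reached by 9. A region at Gm14963 on chromosome 19 and a further intergenic region on chromosome 11 near Arhgef15 were each reached by 8. The regions were taken in order of their promoters, and those of Gys1, with 10, and Fbf1, with 8, were left out because the window met a UTR; further regions with 8, in the Hoxa cluster among others, came after these 5. Each sequence is a window of 300 bases in the region, placed on the first match to a searched motif or, without one, on the middle, and capitals mark the match: GGGCGG (GC box) at Ptprn and a core of the CTCF motif (CC, 3 bases of any kind, AG, 2 of any kind, GGC) at Gm14963 and near Arhgef15, on either strand.
Sf1 intron, chr19:6367225-6367524, plus strand: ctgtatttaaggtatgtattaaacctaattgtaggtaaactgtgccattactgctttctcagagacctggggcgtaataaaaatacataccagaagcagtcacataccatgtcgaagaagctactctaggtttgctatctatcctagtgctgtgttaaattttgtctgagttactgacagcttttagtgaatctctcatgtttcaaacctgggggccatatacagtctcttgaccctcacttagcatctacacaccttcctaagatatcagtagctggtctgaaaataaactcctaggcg
Ptprn intron, chr1:75247507-75247806, plus strand: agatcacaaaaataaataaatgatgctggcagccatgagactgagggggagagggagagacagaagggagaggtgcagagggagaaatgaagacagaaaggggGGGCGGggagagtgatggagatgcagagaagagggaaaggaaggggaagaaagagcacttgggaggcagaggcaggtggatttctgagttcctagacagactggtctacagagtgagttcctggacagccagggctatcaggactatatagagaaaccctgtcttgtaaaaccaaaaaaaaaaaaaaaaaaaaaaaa
Aurkb neighbourhood, intergenic, chr11:68875903-68876202, plus strand: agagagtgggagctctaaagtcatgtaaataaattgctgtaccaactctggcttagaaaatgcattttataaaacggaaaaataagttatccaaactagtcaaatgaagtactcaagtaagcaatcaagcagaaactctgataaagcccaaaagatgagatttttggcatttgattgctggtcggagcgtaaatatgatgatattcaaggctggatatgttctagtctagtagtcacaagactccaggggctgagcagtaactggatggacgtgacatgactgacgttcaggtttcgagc
Gm14963, chr19:6268160-6268459, plus strand: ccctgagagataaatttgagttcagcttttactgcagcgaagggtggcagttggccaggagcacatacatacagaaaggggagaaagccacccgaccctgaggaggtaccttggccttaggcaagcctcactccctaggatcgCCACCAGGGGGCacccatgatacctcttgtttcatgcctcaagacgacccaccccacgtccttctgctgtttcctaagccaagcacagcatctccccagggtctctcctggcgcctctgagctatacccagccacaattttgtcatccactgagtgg
Arhgef15 neighbourhood, intergenic, chr11:68752675-68752974, plus strand: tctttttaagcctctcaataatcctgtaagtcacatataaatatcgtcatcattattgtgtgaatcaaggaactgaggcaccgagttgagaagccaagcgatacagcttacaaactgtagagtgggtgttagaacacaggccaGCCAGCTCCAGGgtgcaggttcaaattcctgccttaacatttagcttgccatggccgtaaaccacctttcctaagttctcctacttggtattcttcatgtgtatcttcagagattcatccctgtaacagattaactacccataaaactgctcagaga

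Matches were also found in other regions called at this distance. Over whole regions, whose lengths differ, the CTCF core stood in 18.8% of 3195 regions of these calls, against 16.0% of 14106 regions called at 25 to 100 kb in all, and the GC box in 20.3% against 16.5%. Windows of 300 bases at the middle were searched for only 2801 of the 3195 regions of these calls and 12367 of the 14106 in all. In these windows the CTCF core stood in 7.53% for these calls, against 6.25% in all. The GC box stood in 10.2% against 7.58%. The searches also covered TCAAGGTCA, an element bound by estrogen-related receptors, which stood in 0.928% against 0.906%, and the octamer ATTTGCAT, bound by Oct factors, in 1.39% against 1.24%. A match is a string of letters and not a bound site, and the 2 sets of regions overlap.

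The 4277 calls joined 2123 promoter fragments of 1780 genes to 3195 distal regions. Both replicates held 18333 interactions at 25 to 100 kb, and 4520 of these (24.7%) passed over 5 or more promoters. Hi-C listed 243 of the 4520 (5.38%, against 4.78% of all 18333), and their removal left the 4277, or 23.3% of the 18333. Another 9505 calls at this distance skipped 1 to 4 promoters and 3674 skipped none, also without those in Hi-C. The number skipped had a median of 7 and a maximum of 24, and the distance a median of 59.2 kb with quartiles of 42.9 and 78.7 kb. Just inside the limit stood 1221 calls that skipped 5 promoters, over a median of 50.1 kb, and just outside it 1587 that skipped 4, over 47.1 kb. The rule counted fragments, and genes often had several: only 1192 of the calls passed over 5 or more other genes.

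A long reach went with a crowded neighbourhood, as the rule implies. The promoters of these calls had a median of 17 other captured promoters within 100 kb, against 10 for promoters of calls that skipped 1 to 4, 4 for those that skipped none and 6 over all 33331 promoter fragments. Of the pairs of replicate 1 at 25 to 100 kb that skipped 5 or more promoters, 17.1% of 26416 were in replicate 2, against 13.3% of those that skipped 1 to 4, 10.1% of those that skipped none and 13.1% of its 139452 pairs at that distance. For replicate 2 the shares found in replicate 1 were 17.6% of 25709 pairs, 15.6%, 13.4% and 15.5% of 118135. Presence in both lists was part of the choice, so these shares describe it only.

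**Figure D1:**
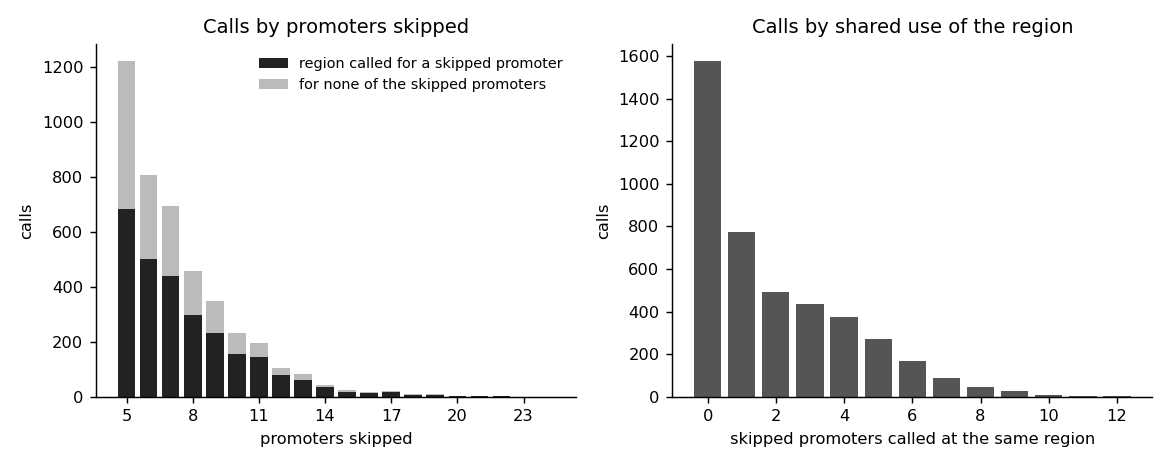
Left, number of calls (vertical axis) by the number of promoters skipped (horizontal axis), split by whether the region was called for any skipped promoter (black) or for none (grey). Right, number of calls by how many skipped promoters were called at the same region. The numbers fell from 1221 calls at 5 skipped promoters to 1 call at 24, and 1578 calls shared their region with none.

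The question which skipped promoters also contacted the region had 2 kinds of answer. In 2699 of 4277 calls (63.1%, exact binomial 95% interval 61.6 to 64.6%, counting error only) the region was itself called, in both replicates, for at least 1 promoter that lay between. In the other 1578 calls (36.9%) it was called for none. The region was shared by 3 or more skipped promoters in 1430 calls, 5 or more in 619, and every skipped promoter in 91. The share did not move with the length of the call: it was 63.2% for 1541 calls at 25 to 50 kb, 62.3% for 1486 at 50 to 75 kb and 63.9% for 1250 at 75 to 100 kb. It was 37.7% for the 9505 calls that skipped 1 to 4, and 86.4% for the 243 calls past 5 or more that Hi-C also listed. A call past more promoters has more chances to share its region with at least 1. The share was 49.8% for calls past 4 promoters and 55.8% for calls past 5.

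Pooled over all distances, a skipped promoter shared the region about as often as in calls that passed over fewer, but not at like distance (below). Over all 31580 combinations of a skipped promoter and a region, 8359 were called in both replicates (26.5%, 26.0 to 27.0%), against 26.1% of 20792 combinations for calls that skipped 1 to 4. Regions reached by several of the promoters enter many times here. With 1 call for each of the 3195 regions, 18.4% of combinations were called and 53.0% of calls had a skipped promoter at their region. In replicate 1 alone 40.3% of combinations were listed and in replicate 2 32.8%, while Hi-C, the list without capture, held 9.97%.

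Sharing fell with the distance of the skipped promoter from the region, in both replicates and in Hi-C. Of skipped promoters 1 to 5 kb from the region 54.1% (51.8 to 56.5%) were called there, of those at 10 to 25 kb 30.6% (29.6 to 31.6%) and of those at 50 to 100 kb 15.3% (14.5 to 16.2%). Hi-C listed 35.6, 11.9 and 2.96% in the same classes, a steeper fall. Promoters on the far side of the region, as near to it as the skipped ones but not passed over, were called there at much the same rate: 53.3% at 1 to 5 kb, 31.9% at 10 to 25 kb and 13.7% at 50 to 100 kb, with intervals that overlap those of the skipped promoters. For calls that skipped 1 to 4 the shares were lower near the region, 48.9% at 1 to 5 kb and 26.0% at 10 to 25 kb, and 16.0% at 50 to 100 kb.

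**Figure D2:**
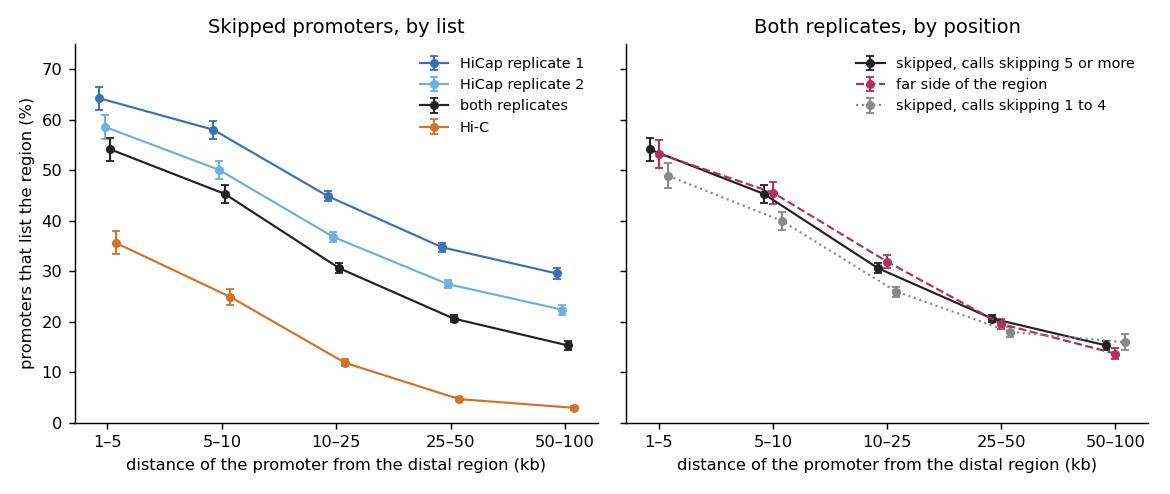
Share of promoters that list the distal region (vertical axis, %) by their distance from it (horizontal axis, kb); bars are exact binomial 95% intervals. Left, skipped promoters in each HiCap replicate, in both and in Hi-C; right, in both replicates, skipped promoters beside promoters on the far side of the region and beside those skipped by calls past 1 to 4. Every line falls with distance, from 54.1% to 15.3% for skipped promoters in both replicates.

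The promoter next to the region was not always among those that used it. Of the 4277 regions counted once for each call, 48.7% (47.2 to 50.2%) were called for the captured promoter nearest to them, against 36.7% for calls that skipped 1 to 4. For calls that skipped none it was 55.3%, but there the nearest promoter can be the calling one, which is called by definition. That share is therefore not comparable with the others. The shares of 48.7 and 36.7% were not matched for the distance of the nearest promoter from the region. The calling promoters of these classes had medians of 17 and 10 other promoters within 100 kb. In the calls past 5 or more promoters, the nearest promoter lay between the midpoints in 60.1%. Counted from the region, the first skipped promoter was called there in 46.5% of calls, at a median of 7.24 kb, the second in 31.0%, the third in 28.5% and the tenth in 15.7% of the calls that had one.

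Alternative promoters of the same gene were common among the skipped and shared the region less often. A promoter fragment of the calling gene itself was passed over in 1896 calls (44.3%). Such fragments were called at the region in 698 of 4313 combinations (16.2%, 15.1 to 17.3%), and promoters of other genes in 7661 of 27267 (28.1%, 27.6 to 28.6%). They lay farther from the region, but the order was the same at like distance: 23.0% against 31.3% at 10 to 25 kb, and 12.2% against 16.4% at 50 to 100 kb.

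Some skipped promoters made no call at all. Of the 6564 promoter fragments passed over, 67.7% had a call of their own anywhere, against 47.6% of all 33331. Among combinations whose skipped promoter had a call, 36.4% were called at the region. Of 215 promoters that 20 or more calls passed over, 53 shared the region in 50% or more of these calls and 62 in none, and 53 of the 62 had no call anywhere. The most often skipped, chosen after their values were seen, were 3 fragments of Gcgr, the glucagon receptor, and 2 of Trim41 on chromosome 11, each passed over by 47 calls. The Gcgr fragments, of 281, 1321 and 39 bp, shared the region in 4, 3 and none of the 47 calls. The fragment of 39 bp had no call anywhere. Those of Trim41, of 180 and 323 bp, shared it in none and had 1 call each. Calls can have a region in common, and the part of fragment length was not tested. A fragment of Vamp2, a synaptic vesicle protein, was passed over by 43 calls and shared the region in 28 of them.

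The calls that shared their region with no skipped promoter were of about the same length, with a median of 60.0 kb against 58.9 kb for the others. In 540 of the 1578 no skipped promoter listed the region in either replicate, and in 472 of these none did in Hi-C either. For 1164 calls the region was called for no other promoter of any kind. Distal regions of unshared calls overlapped an exon in 30.7% of 1572 regions and those of shared calls in 48.7% of 1701, and their median lengths were 582 and 763 bp. Fragment length moves with this split, and its part in it was not tested.

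The longest skips lay in the Hoxa cluster on chromosome 6, which encodes homeobox factors that pattern the body axis. The promoter of Hoxa2 was called at an intergenic region 86.7 kb away past 24 promoters, those of Hoxa3 to Hoxa11 among them, and none of the 24 was called there. RP23-103L13.9, a transcript beside Hoxa3, reached past 23 promoters, up to that of Hoxa13, to a region 96.8 kb away that again none of them was called at. Hoxa11as, antisense to Hoxa11, gave the opposite picture: it reached past 22 promoters to an exonic region of Hoxa3 79.9 kb away, and 11 of the 22, among them those of Hoxa4, Hoxa5, Hoxa6 and Hoxa10, were called at the same region. On chromosome 11, RP23-422L16.13 and Sat2 each passed over 22 promoters, of which 2 and 3 were called at the region. Hox promoters, Hoxa11as included, made 67 of the calls, of which 35 lay in Hoxa, 16 in Hoxb and 16 in Hoxd and none in Hoxc. A skipped promoter used the region in 28 of 35 calls in Hoxa, 14 of 16 in Hoxd and 5 of 16 in Hoxb. These calls passed 7 to 24 promoters in Hoxa, 5 to 18 in Hoxd and 5 to 11 in Hoxb, and its part in the contrast was not tested.

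Regions shared by most skipped promoters sat in dense neighbourhoods too. From Kctd11, an adaptor of ubiquitin ligation, a call over 95.9 kb to an exonic region of Chrnb1, a subunit of the muscle acetylcholine receptor, passed 17 promoters, and 12 of them were called at that region, among them those of Fgf11, Nlgn2 and Tnk1. From Zfand2b a call over 82.6 kb to the Ptprn intron passed 15 and shared with 12. Hoxa11as and Hoxa11 were also among the leading calls, each with 11 shared promoters, of 22 and 21 passed. All 12 or 11 were listed in replicate 1 and in replicate 2 by definition, and Hi-C held between 1 and 5 of the skipped promoters at these regions.

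The longest of the calls came close to the upper limit of 100 kb. Myt1, C530028O21Rik, Acad10, Msl1 and Plec were each called at a region 99.9 kb away or farther, past 6 to 13 promoters. Only for Msl1, a subunit of a histone acetyltransferase complex, and Plec, a cytoskeletal linker, was 1 skipped promoter called at the region, that of Csf3 and that of Parp10.

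Most regions were reached by a single one of these promoters. Of 3195 regions 2626 (82.2%) had 1, 569 had 2 or more and 65 had 5 or more, and 63.6% were called for some other promoter when calls of every length were counted. The Sf1 intron on chr19:6366973-6367776 led, with 12 promoters of 8 genes on both sides: AC127556.5, Ehd1, Cdc42bpg and Map4k2 on the side of lower coordinates and Pygm, Rasgrp2, AC167245.6 and Nrxn2 on the other. Ehd1 acts in endocytic recycling, Pygm is muscle glycogen phosphorylase and Nrxn2 a synaptic adhesion protein. The region was called for 31 promoters in all and listed for 50 in replicate 1, 46 in replicate 2 and 7 in Hi-C. Within 100 kb Hi-C held it for promoters of Men1, Sf1 and Pygm, none farther than 31.9 kb.

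The second was an exonic region of Gys1, muscle glycogen synthase, at chr7:52711365-52712068, with 10 promoters of 7 genes: Lin7b, Snrnp70, Ntf5 and Lhb to one side and Dhdh, Nucb1 and Tulp2 to the other. It was listed for 65 promoters in replicate 1 and 31 in replicate 2, a wide gap between the replicates, for 6 in Hi-C, and for 25 in both HiCap lists. At the Ptprn intron, chr1:75247507-75248250, all 9 promoters lay on one side, from Stk16 at 39.4 kb to Zfand2b at 82.6 kb, with Glb1l, Ankzf1 and Abcb6 between. All 5 genes were thus called at 1 region, while within 100 kb Hi-C held it for Tuba4a, Dnajb2 and another fragment of Glb1l.

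A pair of the leading regions lay close together on chromosome 11. The one near Aurkb, a mitotic kinase, at chr11:68875834-68876270, was reached by promoters of Slc25a35, Pfas, RP23-19I2.2, Per1, Hes7 and Alox12b. The other, at chr11:68752511-68753378, was reached by Ndel1, Rangrf, Mir3062, Pfas and 1500010J02Rik, so that Pfas, an enzyme of purine synthesis, was called at both. Likewise promoters of Map4k2 were called both at the Sf1 intron and at chr19:6268156-6269896, a region that overlaps an exon of Gm14963. Promoters of Gpha2, Ppp2r5b and 1700123I01Rik joined them at the latter. The region at chr11:116003825-116004959, in Fbf1, was reached by 8 promoters, among them those of Unc13d, Wbp2, Trim47, 2310004N24Rik and RP23-174D24.1, and was called for 32 in all, the most of these 8 regions. In the Hoxa cluster, 8 promoters of Hoxa5, Hoxa6, Hoxa7, Hoxa9, Hoxa10 and Hoxa11 were called at an exonic region of Hoxa3, chr6:52119525-52120556, and promoters of Hoxa2, Hoxa3 and Hoxa4 were called there at shorter range.

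**Figure D3:**
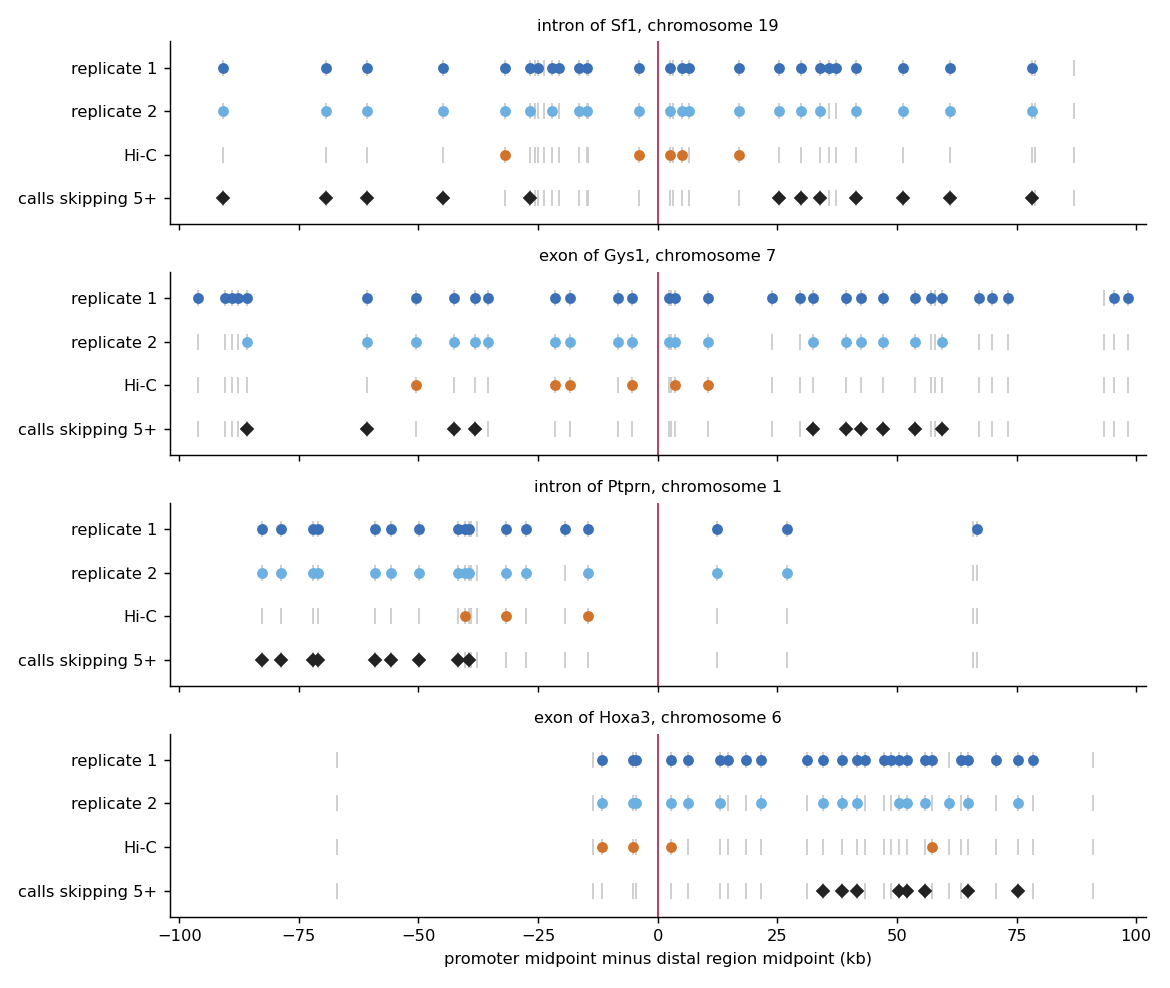
Captured promoters (grey ticks) by distance from 4 of the leading distal regions (red line at 0; horizontal axis, kb), with dots where HiCap replicate 1, replicate 2 or Hi-C lists the region for the promoter and diamonds for calls past 5 or more promoters. At the Sf1 intron the 12 diamonds lie on both sides, at the Ptprn intron the 9 lie on one side, and the Hi-C dots lie mostly nearer to the line.

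As a whole the regions were more often exonic than those of calls past fewer promoters. An exon was overlapped by 40.2% of them (38.5 to 41.9%), against 31.4% for calls that skipped 1 to 4 and 21.7% for calls that skipped none, while 33.0, 34.6 and 44.0% were intergenic. Median G+C content was 49.1, 47.9 and 46.5% in the same order. The rule picks places dense in genes, and its part in these differences was not tested. The region lay in the calling gene itself in 1.24% of calls and in a gene whose promoter was skipped in 39.3%. It lay upstream of the promoter in 47.4% of the 3887 calls whose gene could be given a strand. A neighbouring region within 5 kb was called for the same promoter in 37.6% of calls, against 39.5% for calls that skipped 1 to 4 and 41.6% for those that skipped none. These pooled shares mix call lengths, which differed between the classes. At 25 to 50 kb the shares were close, with 45.6, 45.8 and 45.1%. At 50 to 75 kb the order was another, with 35.8% (33.4 to 38.3%) against 30.4% (28.5 to 32.3%) and 30.2% (26.5 to 34.1%), where the first pair of intervals did not overlap. At 75 to 100 kb these shares were 29.8% (27.2 to 32.4%), 25.8% (23.3 to 28.4%) and 27.9% (22.2 to 34.1%), with intervals that overlap. Hi-C, although without the pairs themselves, listed a pair of the same promoter within 1 kb of the region for 7.11% of calls, against 7.28% for calls that skipped 1 to 4 and 6.94% for calls that skipped none. Within 5 kb it did for 16.4% (15.3 to 17.5%), below the 19.6 and 19.9% of the other classes. The authors' combined list held 88.4% of the calls with the same promoter fragment, against 93.6% of those that skipped 1 to 4 and 96.7% of those that skipped none.

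The leading genes were few and most genes had 1 call. Of 1780 genes, 942 had 1, 214 had 5 or more and 48 had 10 or more, and the 12 genes with most held 321 calls (7.51%). Igfbp4, which binds insulin-like growth factors, led with 44 calls at 37.2 to 99.3 kb, out of 129 pairs of this kind in replicate 1, 124 in replicate 2 and 12 in Hi-C. In 17 of its 44 calls a skipped promoter was called at the region. RP23-82I5.15, a transcript on chromosome 11, had 42 calls from 74 and 86 pairs, and 26 of the 42 shared the region with a skipped promoter. For both genes the replicates held similar numbers of pairs.

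Gnb2l1, a scaffold protein of the ribosome, had 34 calls from 88 pairs in replicate 1 and 63 in replicate 2. Cd68, a lysosomal glycoprotein of macrophages, had 33 from 65 and 72, all past 10 to 16 promoters, alone among the 12 in having none past fewer than 10. Atp5b, a subunit of mitochondrial ATP synthase on chromosome 10, had 30 from 89 and 75. Their regions were shared with a skipped promoter in 24 of 34, 22 of 33 and 10 of 30 calls.

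Cbr2, a carbonyl reductase, had 28 calls, Hes7, a repressor of the segmentation clock, 23, and Glb1l, named for its likeness to beta-galactosidase, 19. Hes7 had 40 pairs in replicate 1, 50 in replicate 2 and 1 in Hi-C, and shared 17 of its 23 regions. Hsp90ab1, a cytosolic chaperone on chromosome 17, also had 19 but shared only 2 of them, the lowest number of the 12. It had 108 pairs in replicate 1 and 35 in replicate 2. Flt3l, a ligand of a receptor of blood progenitors, had 17 from 91 and 24. Ddx39b, an RNA helicase of mRNA export, Myo1c, a motor protein, and Trim28, a corepressor of retroviral elements, had 16 each, the last from 90 pairs in replicate 1 and 22 in replicate 2. The named genes on chromosomes 7 and 17 thus had far fewer pairs in replicate 2, and their number of calls was bounded by that list.

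**Figure D4:**
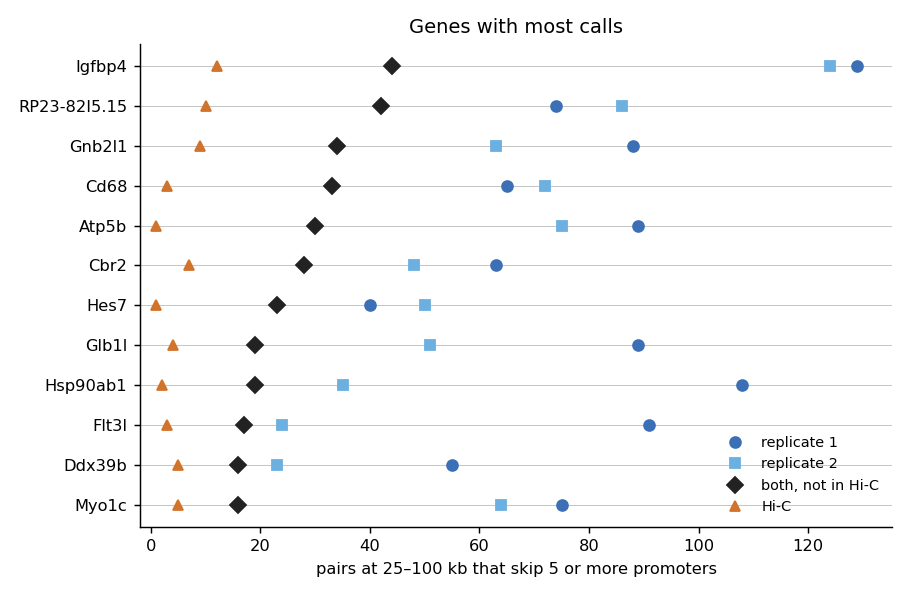
Pairs at 25 to 100 kb past 5 or more promoters (horizontal axis, number) for the 12 genes with most calls (vertical axis), in each HiCap replicate and in Hi-C, with the calls in both replicates and not in Hi-C as diamonds. Igfbp4 has 129 and 124 pairs in the replicates and 44 calls, and Hsp90ab1 108 and 35 pairs and 19 calls.

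Gene groups differed in how many members had such a call, and the median number of other promoters within 100 kb is given beside each. Over all 21956 genes in the lists 8.11% had one, with a median of 6. Of 39 Hox genes 21 had one (53.8%), with a median of 22 other promoters, led by Hoxb6 and Hoxd3 with 8 calls each. Of 83 cytosolic ribosomal protein genes 23 had one (27.7%, median 10 other promoters), led by Rplp2 with 10 and Rpl23 with 9. Of 58 clustered protocadherins, adhesion proteins of neurons, 15 had one (median 13), with at most 3 calls each, at Pcdhga11. Among housekeeping groups, 14 of 74 oxidative phosphorylation genes had one (median 9), led by Atp5b, and 10 of 44 proteasome genes (median 9), led by Psmb10 with 11 calls. So did 5 of 19 glycolysis genes (median 12.5), led by Aldoc with 8, and 7 of 65 mitochondrial ribosomal protein genes (median 8), led by Mrpl24 with 6. Of the 6220 genes with any call at 25 to 100 kb, 28.6% had one past 5 or more promoters. On that base the shares were 91.3% for Hox genes, 62.5% for protocadherins, 48.3% for oxidative phosphorylation and 47.6% for the proteasome. They were 46.9% for cytosolic ribosomal proteins, 45.5% for glycolysis and 26.9% for mitochondrial ribosomal proteins, the last now below all genes.

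Genes tied to the stem cell state stood near the share of all listed genes. Of 38 pluripotency genes 4 had such a call (10.5%, 2.94 to 24.8%, median 5.5 other promoters): Trim28 with 16, Stat3, the transducer of LIF signals, with 7, and the Nodal inhibitors Lefty2 with 5 and Lefty1 with 3. Of 49 genes of Stat, Wnt and Hedgehog signalling 6 had one (12.2%, 4.63 to 24.8%, median 6), among them Stat6 with 7 and Stat5a with 3. Among regulators of the genome at large, of 43 chromatin regulators 4 had one (Brd2, Chd4, Men1 and Mll2; median 8), and of 40 genes of RNA polymerase II and Mediator 6 (median 10), led by Med24 with 13. Of 44 cell cycle and replication genes 8 had one (median 9), led by Cdc6 with 7, and of 64 histone genes 8 (median 13), led by Hist1h4d with 3. Of 366 zinc finger genes 20 had one (5.46%, median 7), led by Zfp707 with 9. Keratins, in 3 of 89 genes (median 9.5), and olfactory receptors, in 1 of 639 (Olfr522), stood lowest. The latter are arranged in large clusters as well, with a median of 5 promoters within 100 kb, and only 38 of the 639 had a call of any length.

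Chromosome 11 held 1254 of the calls (29.3%), against 21.6% of all 18333 calls at 25 to 100 kb, and chromosome 7 held 546 (12.8% against 8.33%). These were 31.7 and 35.8% of the calls at this distance on the chromosomes, against 23.3% over all chromosomes. Chromosome 11 was the densest in captured promoters, with 28.8 per Mb. The order of the others was not that of density. Chromosome 2, with 18.5 per Mb, slightly above chromosome 7, had 225 such calls of its 1027 at this distance (21.9%). Chromosome 4, with 15.6 per Mb, had 56 of only 293 (19.1%). Its pairs at this distance numbered 1926 in replicate 1 and 5144 in replicate 2, so the shorter list bounded its calls. Chromosomes 8, 19 and 5 followed with 282, 266 and 240.

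The order of chromosomes also depended on the library. Of pairs past 5 or more promoters, replicate 1 had 20.1% on chromosome 11 and 19.7% on chromosome 7, replicate 2 had 28.4 and 7.32%, and Hi-C had 33.6 and 10.2%. The libraries differed in the same way over all their pairs at 25 to 100 kb. There replicate 1 had 12.6 and 11.5%, replicate 2 had 19.6 and 4.78%, and Hi-C had 26.3 and 6.55%. The larger share of chromosome 11 held for replicate 2 and Hi-C, and in replicate 1 the 2 chromosomes were close. With 1 call for each promoter chromosome 11 held 22.4%. Chromosome 13 had 16 of its 236 calls at 25 to 100 kb, and chromosome X had 4 of 70, of Syp, Ccdc120, Rpl10 and Alas2. Chromosome 12 had 1 of 208. It was of Akt1, a kinase of growth signalling, 36.7 kb from its region past 6 promoters, of which 3 were called there.

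**Figure D5:**
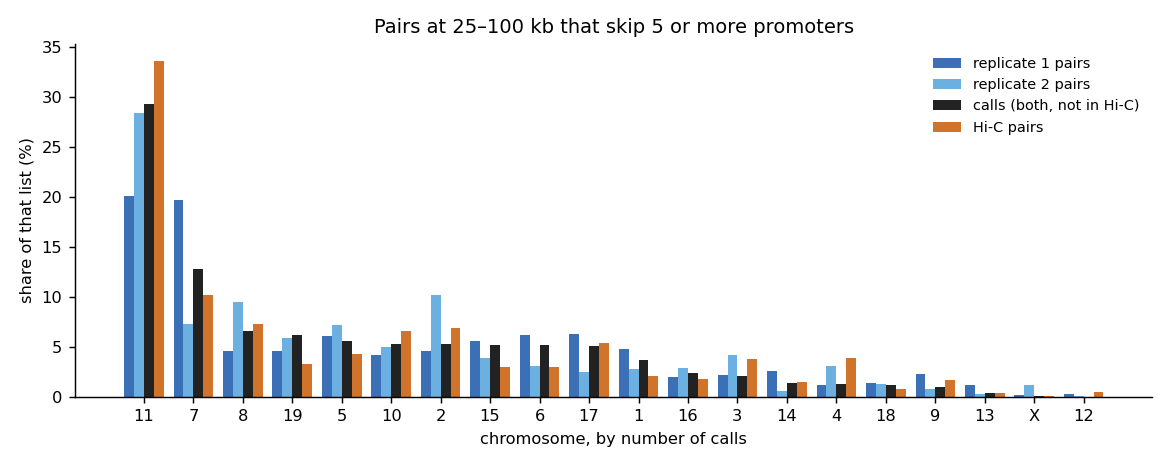
Share of the pairs at 25 to 100 kb past 5 or more promoters (vertical axis, %) on each chromosome (horizontal axis, by number of calls), for each HiCap replicate, for the calls in both and not in Hi-C, and for Hi-C. Chromosome 11 holds 29.3% of the calls, and chromosome 7 holds 19.7% in replicate 1 but 7.32% in replicate 2. Of all pairs at 25 to 100 kb, chromosome 7 holds 11.5% in replicate 1 and 4.78% in replicate 2.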

How the data were processed

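HiCap and Hi-C, both with the 4-base cutter MboI, were carried out by the authors on 2 replicates each of untreated R1 mESCs. They mapped the ends separately to mm9 with iterative trimming, discarded ambiguous reads, duplicates and pairs under 1 kb, and called HiCap interactions with 3 or more read pairs in each replicate; the minimum for Hi-C, whose replicates are pooled, is not given in the sources used here. The deposited values are positions, a form of data other than counts or signal, without normalization. The 4 lists name 33331 promoter fragments. Capture-C libraries were not analysed here.

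Distinct pairs were matched by exact fragment ends, distances taken between midpoints and skipped promoters counted by their midpoints, and the counting was checked by brute force on simulated lists. GENCODE genes for mm9, pseudogenes left out, gave exons and introns, and the mm9 genome gave sequences. Python 3.11.15, pandas 2.3.3, scipy 1.17.1 and pysam 0.24.0 were used. Intervals are exact (Clopper-Pearson, 95%); calls share fragments, so no p-value was computed. Named were the 12 genes with most calls, the 8 regions with most promoters, the 5 calls with most skipped, with most shared and of greatest length, the 4 leading genes of each of 16 gene lists, and the leading chromosomes; examples outside this are marked, and a few items that the rule names are not reported here. The members, gene lists and rules were chosen with earlier results of these data known.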

Additional observations from a re-analysis of the deposited data

How the results depend on the processing

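The 4277 calls became 4271 with the authors' combined list, which holds 3782 of the 4277 with the same promoter fragment, 4249 with promoters of the HiCap lists only, 3973 when a Hi-C pair within 1 kb was removed, 4520 with no such removal, 4278 by facing edges and 4046 with adjoining regions merged. They became 1192 when genes were counted in place of fragments, 2705 when only promoters with a call of their own were counted, 7841 past 3 or more, 751 past 10 or more and 2736 at 50 to 100 kb. With either replicate alone they were 25272 to 25893, since no second list then filters the pairs.

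Calls with a skipped promoter at their region (63.1%) were 74.8 to 81.3% with either replicate alone, 78.5% with regions within 1 kb, 73.2% past 10 or more, 53.0% with 1 call per distal region and 61.2% without promoters of the same gene. Combinations called (26.5%) were 32.8 to 40.3, 35.0, 24.9, 18.4 and 28.1% in the same order. Nearest promoters called (48.7%) were 53.4 to 62.8, 61.7, 51.9 and 38.7%, and 48.9% in the last. Combinations in Hi-C (9.97%) were 18.1% within 1 kb and 7.02% with 1 call per region. The share on chromosome 11 (29.3%) was 19.8 to 28.2% with either replicate alone, lowest without replicate 2, 22.4% with 1 call per promoter and 29.2% with 1 per region. Median G+C content (49.1%) was 49.6% with each call counted and 48.9% in 1 kb windows. Neighbouring regions of the same promoter (37.6% within 5 kb) were 13.8% within 1 kb, 62.1% within 20 kb and 67.4 to 71.7% with either replicate alone.

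No paired analysis was possible because the Hi-C list pools its replicates, Capture-C was not analysed and no result comes from a test. The lists hold no read numbers, so depth cannot be weighed call by call, and a promoter not listed at a region can still have up to 2 read pairs there in a replicate. Numbers near the limit of 5 skipped promoters depend on which fragments the lists name. Intervals cover counting error only, and calls that share a promoter or region are not independent.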
